A study of Homo sapiens with 3 samples.

Results

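The genes described here are 9 inflammatory chemokines: CCL2, CCL5, CCL20, CXCL1, CXCL2, CXCL3, CXCL5, CXCL8 and CXCL16, out of 51136 genes in the count table. They were chosen by name with the measured values of these libraries known, CCL2 as the leading gene, so their folds are given as a description. All 9 were found in the table, the gene of interleukin-8 under the symbol CXCL8. With at least 10 counts in a library, 8 could be compared. CXCL5 was under 10 counts in every library.

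Total RNA was sequenced from PANC-1 cells, an established human pancreatic ductal carcinoma line, to ask how gene expression changed after Rg3 or TAM. Control cells received no agent, and their time in culture and any drug vehicle are not given in the sources used here. Rg3, a ginsenoside (a steroid-like saponin of ginseng), was given at 200 µM for 24 h, and TAM (tamoxifen, an antiestrogen that the study used as an inhibitor of protein kinase C) at 50 µM for 24 h. Each condition was 1 library of 1 cell line grown in culture, with 11300766 counts for control, 12861693 for Rg3 and 11321442 for TAM. With no replicate, no test was made, and the 95% intervals below cover counting error only. A difference in CCL2 between 2 dishes of untreated cells could not be measured. Both treated libraries were compared with the same control library, so errors in that library enter both comparisons.

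Chemokines are small secreted proteins that draw leukocytes along a gradient. CCL ligands such as CCL2 act on CC receptors of monocytes and lymphocytes, whereas the CXCL1, CXCL2, CXCL3, CXCL5 and CXCL8 proteins carry an ELR motif, act on CXCR1 and CXCR2, attract neutrophils and promote growth of blood vessels. In epithelial cells many of these genes are switched on by cytokines through the transcription factor NF-kB, and several of their short-lived mRNAs are destroyed through AU-rich elements in the 3′ untranslated region. CXCL16 differs from the rest in being made as a membrane protein that is shed by proteases.

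The NF-kB element is what the promoters of the ELR chemokines are best known for, so the windows that hold it are shown. RefSeq promoter sequences (GRCh38.p14) matched 6 of the 9 members by symbol. CCL2, CCL5 and CXCL16 were not matched. Each line gives 90 bases on the strand of the gene, from 110 to 21 bases before its start, and capitals mark a match to GGAATTTCC or to the NF-kB consensus, both searched on both strands. These motifs overlap in CXCL1, CXCL2, CXCL3 and CXCL5.
CCL20: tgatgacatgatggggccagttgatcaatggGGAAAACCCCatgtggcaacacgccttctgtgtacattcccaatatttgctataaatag
CXCL1: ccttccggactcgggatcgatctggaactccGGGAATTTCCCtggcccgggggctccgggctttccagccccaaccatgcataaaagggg
CXCL2: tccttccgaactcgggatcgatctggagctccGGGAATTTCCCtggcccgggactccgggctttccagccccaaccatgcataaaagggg
CXCL3: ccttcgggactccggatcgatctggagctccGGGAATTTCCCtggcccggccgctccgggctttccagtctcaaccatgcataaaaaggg
CXCL5: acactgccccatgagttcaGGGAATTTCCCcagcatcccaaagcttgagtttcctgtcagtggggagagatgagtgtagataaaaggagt
CXCL8: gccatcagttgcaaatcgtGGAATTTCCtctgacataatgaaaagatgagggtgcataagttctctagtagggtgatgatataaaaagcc

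The windows lie at chr2:227813732-227813821 for CCL20, chr4:73740459-73740548 for CXCL8, chr4:73869283-73869372 for CXCL1, chr4:73998698-73998787 for CXCL5, chr4:74038710-74038799 for CXCL3 and chr4:74099216-74099305 for CXCL2. CXCL2, CXCL3 and CXCL5 are on the minus strand and the others on the plus strand. GGAATTTCC was present in 5 of the 6 windows, those of the ELR chemokines, with its first base between positions -91 and -77 from the start. It was found in 145 of all 35116 promoters of the table over the same 250 bases before the start, or 0.413%. The consensus, found in 5.21% of promoters, matched in CCL20, CXCL1, CXCL2, CXCL3 and CXCL5 and had no match in CXCL8. These promoters are not separate examples, since CXCL1 and CXCL3 were 81.4% identical over the 250 bases before the start, CXCL1 and CXCL2 70.1%, and CXCL2 and CXCL3 73.4%. A match describes these letters and not a bound site.

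CCL2, which encodes the monocyte attractant MCP-1 and lies at chr17:34255285-34257203, was far higher in the TAM library than in the other two. Its counts were 135 in control, 249 in Rg3 and 964 in TAM. Scaled by TMM (trimmed mean of M values) to CPM (counts for each 1000000 of the scaled library size), these were 11.8 (95% Poisson interval 9.86 to 13.9), 17.3 (15.2 to 19.6) and 96.9 (90.8 to 103). The TAM library stood above the others with no overlap of the intervals, and the Rg3 library stood a little above control. The log2 fold of TAM against control was 3.04 (95% counting interval 2.78 to 3.31), an 8.24-fold difference. That of Rg3 against control was 0.56 (0.25 to 0.87), or 1.47-fold, just under the 1.5-fold that was called higher. TAM against Rg3, at different doses, differed by 2.49 on the log2 scale (2.28 to 2.69). Of 16079 genes compared between TAM and control, 36 had a larger log2 fold than CCL2, and of 9998 genes with at least 100 counts, 6 did.

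**Figure D1:**
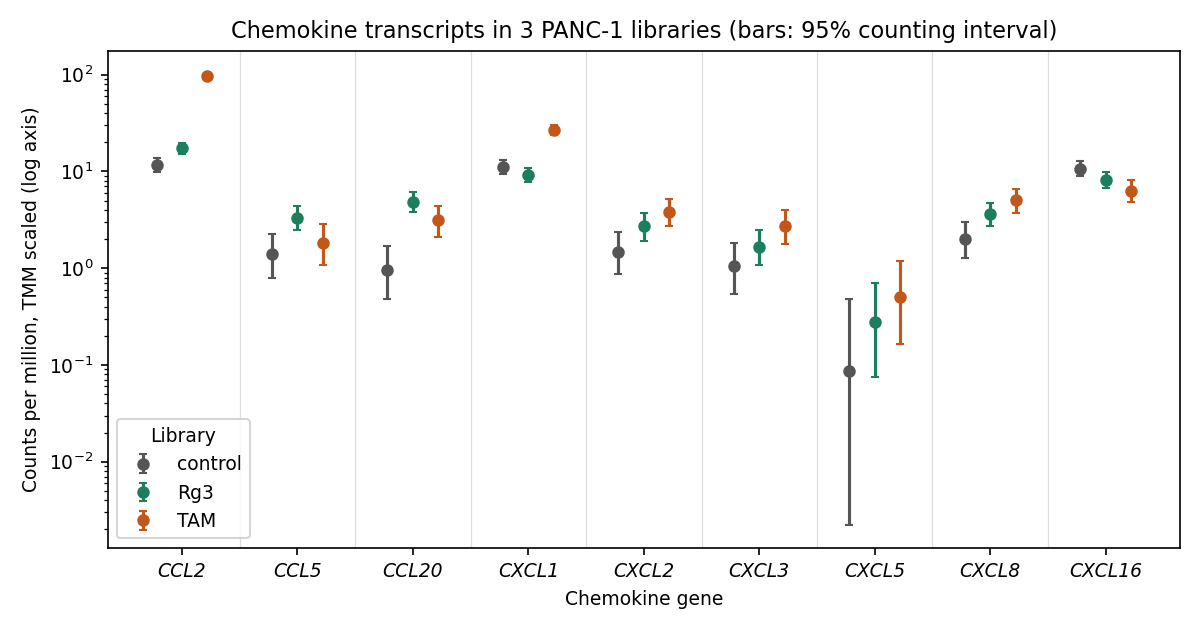
TMM-scaled CPM, on a log axis, of the 9 chemokine genes in the control (grey), Rg3 (green) and TAM (orange) libraries, with 95% Poisson intervals as bars. CCL2 in TAM, at 96.9, is the highest point, CXCL1 is also highest in TAM, CCL5 and CCL20 are highest in Rg3, and CXCL16 is lowest in TAM.

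A gene was called higher over 1.5-fold and lower under 0.67-fold, with at least 10 counts in either library. With TAM, 6 of 8 compared chemokines were called higher, where 17.4% of all genes were, and 1 was called lower, where 23.8% of all genes were. With Rg3, 5 of 8 were called higher, where 25.0% of all genes were, and 0 lower, where 19.5% were. Against Rg3, TAM was called higher for 3 (30.0% of all genes) and lower for 2 (35.4% of all genes). The median log2 fold of all genes was 0.04 for Rg3 against control, -0.02 for TAM against control and -0.08 for TAM against Rg3. The members were picked on these same values, so nothing is read from their counts beside the background.

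The neutrophil attractants CXCL1, CXCL2 and CXCL3 (the GRO chemokines) were all called higher with TAM, with log2 folds between 1.27 and 1.38. CXCL1 (chr4:73869393-73871308) had 128 counts in control, 133 in Rg3 and 267 in TAM, with CPM of 11.1, 9.24 and 26.8. Only the TAM library stood apart for CXCL1, with a log2 fold of 1.27 (0.96 to 1.58) against control, while Rg3 gave -0.27 (-0.63 to 0.09). CXCL2 (chr4:74097040-74099195) had 17, 39 and 38 counts in control, Rg3 and TAM, or 1.48, 2.71 and 3.82 CPM. CXCL2 was above control in both treated libraries, with log2 folds of 0.87 (0.02 to 1.79) for Rg3 and 1.37 (0.51 to 2.28) for TAM.

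CXCL3 (chr4:74036589-74038689) had 12 counts in control, 24 in Rg3 and 27 in TAM, or 1.05, 1.67 and 2.71 CPM. Its log2 fold with TAM was 1.38 (0.35 to 2.49). With Rg3 it was called higher at 0.67, but the interval of -0.38 to 1.81 took in no difference. The transcripts of these 3 genes resemble each other (CXCL1 and CXCL2 were 80.4% identical), so reads could have been split between them, although only 5.73% of the 50-base stretches of CXCL1, 9.24% of CXCL2 and 5.26% of CXCL3 were shared with another gene. Summed, the 3 genes had 157, 196 and 332 counts, a log2 fold of -0.0066 (-0.32 to 0.31) for Rg3 and 1.29 (1.01 to 1.57) for TAM. Thus the Rg3 values above control of CXCL2 and CXCL3 were not seen in the sum, most of which is CXCL1. The ratio of CXCL2 to CXCL1 counts was 0.133 in control (0.0750 to 0.221), 0.293 in Rg3 (0.200 to 0.422) and 0.142 in TAM (0.0985 to 0.200).

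CXCL8, which encodes interleukin-8, lies at chr4:73740569-73743716 and showed the same order of libraries as CXCL2 by CPM. It had 23 counts in control, 52 in Rg3 and 50 in TAM, or 2.00, 3.61 and 5.02 CPM. Its log2 folds against control were 0.85 (0.12 to 1.63) for Rg3 and 1.33 (0.59 to 2.11) for TAM, and TAM against Rg3 gave 0.48 (-0.11 to 1.06). CXCL5 (chr4:73995642-73998677), the remaining ELR chemokine, had 1, 4 and 5 counts in control, Rg3 and TAM, and no fold is given.

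Among the CC ligands other than CCL2, the highest level was in the Rg3 library. CCL20 (chr2:227813842-227817556), which attracts CCR6-bearing lymphocytes and dendritic cells, had 11 counts in control, 70 in Rg3 and 31 in TAM, or 0.958, 4.86 and 3.11 CPM. Its log2 folds against control were 2.34 (1.42 to 3.41) for Rg3, the largest of the members in that comparison, and 1.70 (0.67 to 2.84) for TAM. TAM against Rg3 was -0.64 (-1.30 to -0.01), so the interval barely left out no difference. With Rg3, 69 of 16487 genes compared had a larger log2 fold than CCL20.

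CCL5 (chr17:35871491-35880360), the T-cell and monocyte attractant RANTES, had 16 counts in control, 48 in Rg3 and 18 in TAM, or 1.39, 3.33 and 1.81 CPM. It was higher in Rg3 and similar in the other two, with log2 folds of 1.26 (0.42 to 2.17) for Rg3, 0.38 (-0.68 to 1.44) for TAM and -0.88 (-1.75 to -0.07) for TAM against Rg3. Other genes, mainly AC027290.2, shared 16.0% of the 50-base stretches of CCL5. CCL2, CCL20 and CXCL8 shared 0%.

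CXCL16 (chr17:4733533-4739928), the membrane-bound ligand of CXCR6, went the other way. Its counts were 123 in control, 118 in Rg3 and 63 in TAM, or 10.7, 8.19 and 6.33 CPM. It was the one chemokine called lower with TAM, with a log2 fold of -0.76 (-1.22 to -0.31), or 0.591-fold. With Rg3 its log2 fold was -0.39 (-0.76 to -0.01) and was not called. MED11 overlaps CXCL16 on the opposite strand, and whether the counting used strand is not given in the sources used here.

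**Figure D2:**
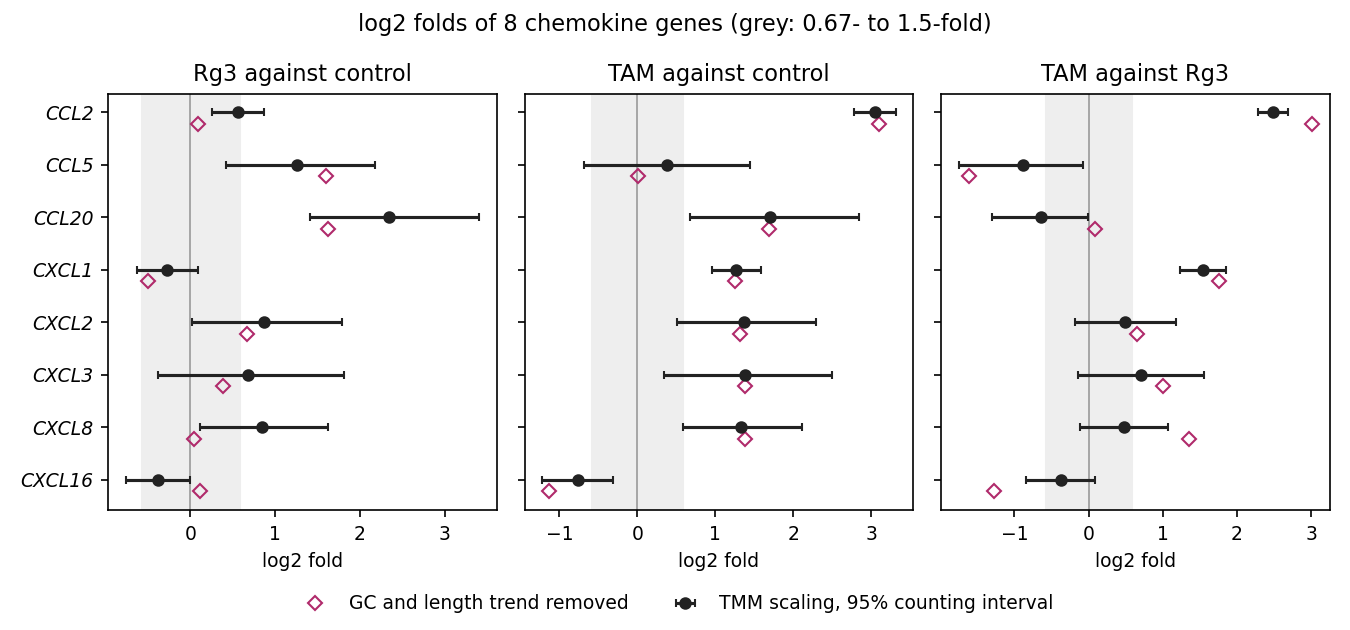
The log2 folds of the 8 compared chemokine genes, 1 panel for each pair of libraries, as black points with 95% counting intervals and as purple diamonds after the GC and length trend was taken out. Grey marks folds of 0.67 to 1.5. CCL2 stands at 3.04 in the TAM panel on the black points, while its Rg3 value falls from 0.56 to 0.093 once the trend is removed.

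The folds of all genes moved with the GC content of their transcripts. Over genes with at least 50 counts, Spearman's rho between GC content and log2 fold was -0.815 for Rg3 against control (11583 genes) and 0.521 for TAM against control (11022 genes). This is a description across genes, which are not independent and share the libraries. Transcript length went with the folds as well, at -0.477 for TAM and 0.213 for Rg3. CXCL8, at 33.4% GC, CCL20, at 35.5%, and CCL2, at 41.0%, had the lowest GC content of the compared chemokines. Once a loess trend on GC content and transcript length had been taken out, the TAM log2 folds were 3.10 for CCL2, 1.69 for CCL20, 1.25 for CXCL1, 1.32 for CXCL2, 1.39 for CXCL3, 1.39 for CXCL8 and -1.14 for CXCL16. Each of these lay within its counting interval.

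The Rg3 values moved more. With the trend removed, CCL2 was at 0.093, CXCL8 at 0.038 and CXCL3 at 0.39, none of them called, and CXCL16, at 56.0% GC, turned from -0.39 to 0.11. CCL20 at 1.63, CCL5 at 1.60 and CXCL2 at 0.66 were still called higher with Rg3. Between TAM and Rg3 the CCL2 fold grew to 3.01, that of CXCL8 to 1.35 and that of CCL5 to -1.61, while CCL20 turned from -0.64 to 0.089. CXCL16 went from -0.37, not called, to -1.28 and was then called lower, as it was with library totals at -0.72. CXCL2 at 0.65, CXCL8 at 1.35 and CXCL16 were the calls gained between TAM and Rg3. Whether the GC trend came from the libraries or from the cells was not tested.

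**Figure D3:**
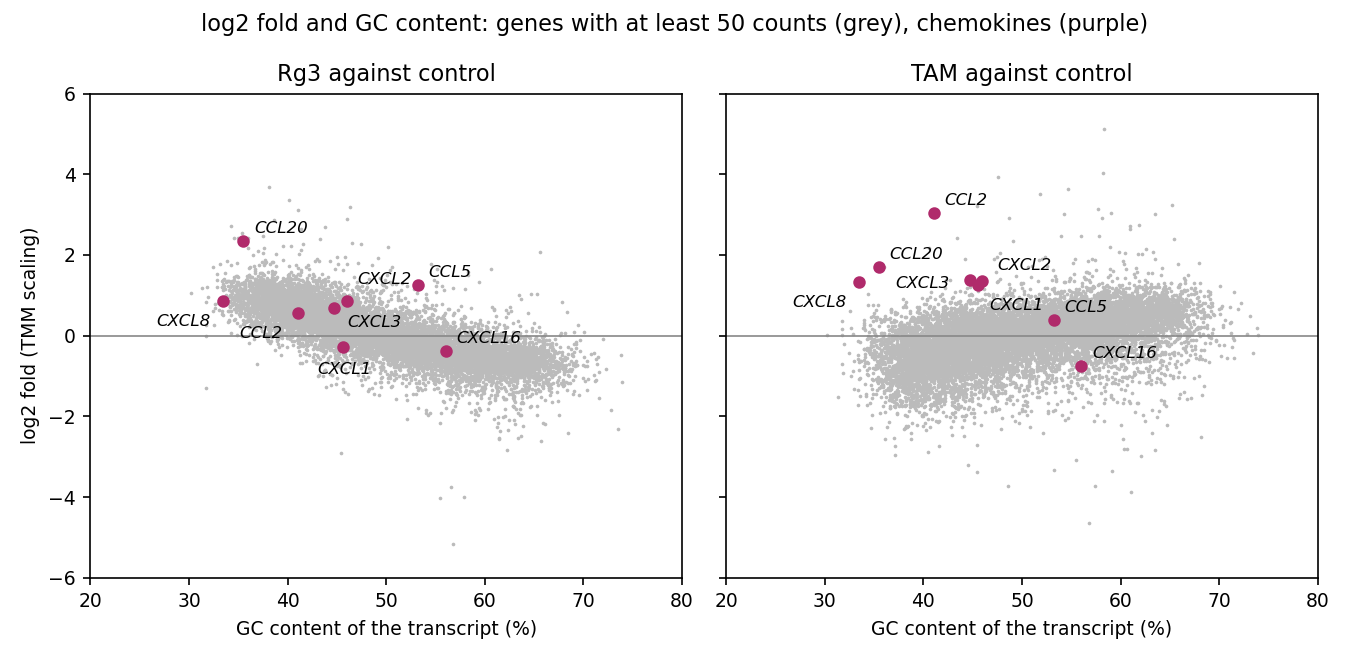
The log2 fold with TMM scaling against the GC content of the transcript, for Rg3 (left) and TAM (right) against control. Grey points are genes with at least 50 counts and purple points are the 8 compared chemokines. CXCL8, CCL2 and CXCL3 lie inside the grey cloud with Rg3, whereas with TAM CCL2, at 3.04 and 41.0% GC, lies above it.

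Per length of transcript, CCL2 had the highest level of the 9 chemokines in each library, at 15.9 CPM per kilobase in control, 23.3 in Rg3 and 131 in TAM. CXCL1 was the second throughout, at 10.2, 8.42 and 24.5. In control CXCL16 followed, at 4.82, then CXCL2, CXCL8, CCL20, CCL5 and CXCL3 between 1.22 and 0.972, whose neighbours in this order did not differ beyond their intervals. In Rg3 CCL20 was the third, at 5.79, with an interval that overlapped that of CXCL1 and not that of CXCL16 at 3.69. In TAM the genes from CCL20, at 3.71, down to CCL5, at 1.32, had overlapping intervals with their neighbours. CXCL5 was last in every library, at 0.0343, 0.109 and 0.198.

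The make-up of the chemokine reads shifted toward CCL2 with TAM. CCL2 held 29.0% (exact binomial 95% interval 24.9 to 33.3) of the 466 reads of the 9 genes in control, 33.8% (30.4 to 37.3) of 737 in Rg3 and 65.9% (63.4 to 68.3) of 1463 in TAM. CXCL16 held 26.4% in control, 16.0% in Rg3 and 4.31% in TAM. The ratio of CCL2 to CXCL1 counts was 1.05 (0.822 to 1.35), 1.87 (1.51 to 2.33) and 3.61 (3.15 to 4.15) in the same order, a comparison within each library that needs no scaling. These shares and ratios still hold the GC and length trend. With it removed, the Rg3 log2 folds against control were 0.093 for CCL2, -0.50 for CXCL1 and 0.11 for CXCL16. Summed over the 9 genes the log2 fold was 0.33 for Rg3 and 1.86 for TAM, and without CCL2 it was 0.23 and 0.80.

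**Figure D4:**
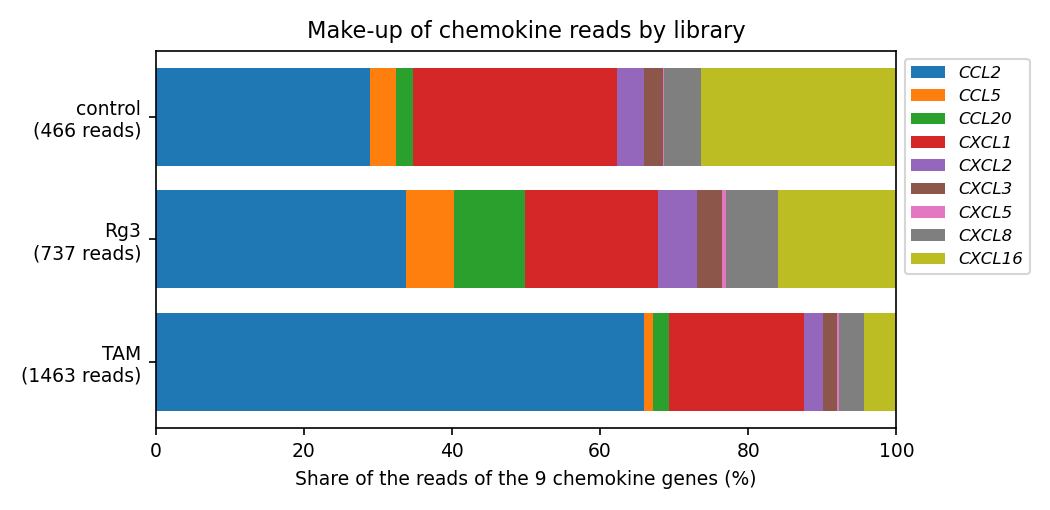
Share, in percent, of the reads of the 9 chemokine genes that each gene held in the control (466 reads), Rg3 (737 reads) and TAM (1463 reads) libraries. CCL2 (blue) widens from 29.0% to 65.9% and CXCL16 (olive) narrows from 26.4% to 4.31% between control and TAM.

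AU-rich pentamers (ATTTA) in the 3′ untranslated region were counted because they mark short-lived cytokine mRNAs. CXCL2 had 10, CXCL8 9, CXCL3 7 and CXCL1 5 in that region, against a median of 2 over 11986 genes. In that order, 14.3%, 16.8%, 23.0% and 32.3% of those genes had at least as many. CCL20 had 3, CCL2 and CXCL16 1 each, and CCL5 0. CXCL5 had 11 in a longer region. Per kilobase, the 1 pentamer of CCL2 in a region of 376 bases came to 2.66, against a median of 1.61. Of the 11986 genes, 72.1% had at least as many pentamers as CCL2 and 31.7% were at least as dense. CXCL2 had 13.9 per kilobase, CXCL3 10.4, CXCL8 7.19, CXCL1 7.08, CCL20 6.24 and CXCL16 1.02. The longer motif TTATTTATT, found in 9.11% of these genes, occurred 5 times in CXCL2, 3 in CXCL1 and 1 each in CXCL3 and CXCL8. It had no match in CCL2, CCL5, CCL20, CXCL5 or CXCL16.

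The 5 genes whose folds in both treated libraries were nearest to those of CCL2, by Euclidean distance between the pairs of log2 folds against control over 12740 genes with at least 50 counts, were DHRS2, TMEM171, BOLA2, PRSS12 and RAB17. DHRS2, a dehydrogenase, was nearest (distance 0.0814), with 18 counts in control, 35 in Rg3 and 126 in TAM. TMEM171, at a distance of 0.323, had 18, 27 and 118. RAB17, an epithelial small GTPase at a distance of 0.553, had 38, 48 and 288. PRSS12, a serine protease, had 13, 17 and 85. BOLA2 had 421, 548 and 2953 counts, but all its 50-base stretches are shared with its copy BOLA2B, so its count is uncertain. The intervals of the Rg3 folds of these 5 genes each took in no difference.

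Other chemokine genes were nearly silent. Of 39 further ligands, 25 had no read in any library and 37 were under 10 counts in all of them. CX3CL1, the membrane-bound fractalkine, had 133 counts in control, 37 in Rg3 and 140 in TAM, and was called lower with Rg3 (log2 fold -2.17, -2.74 to -1.64). CCL28 had 43, 65 and 28 counts, with log2 folds of 0.27 (-0.31 to 0.86) and -0.41 (-1.15 to 0.31). All 23 chemokine receptors were under 10 counts in every library, and 12 had no read, among them CCR2, the receptor of CCL2, and CXCR1, CXCR2 and CXCR6. CXCR4 had 0 counts in control, 4 in Rg3 and 9 in TAM, CCR6 had 7, 5 and 0, and CCR10 6, 6 and 1. A count of 0 allows up to 3 counts, or 0.261 CPM in control, 0.208 in Rg3 and 0.301 in TAM.

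The cytokines that induce these chemokines were near the floor. TNF had 7 counts in control, 6 in Rg3 and 8 in TAM. IL6 had 3, 0 and 0, IL1A 0, 0 and 2, and IL1B 0, 1 and 1. Of the 23 cytokines and receptors listed, 12 could be compared. With Rg3, 4 were called higher and 2 lower (median log2 fold 0.13), and with TAM 0 higher and 5 lower (median -0.24). Of all genes, Rg3 had 25.0% called higher and 19.5% lower, and TAM had 17.4% higher and 23.8% lower. The Rg3 counts are near those shares, and nothing particular to the list is read from either comparison. IL6ST, the gp130 subunit shared by receptors of the IL-6 family, had 594, 1576 and 185 counts in control, Rg3 and TAM, with log2 folds of 1.08 (0.94 to 1.22) and -1.48 (-1.72 to -1.24), and with the trend removed 0.26, no longer called, and -0.71. TNFRSF1B, a TNF receptor, was lower in both, at -1.84 for Rg3 and -0.94 for TAM, from 338 counts in control, 118 in Rg3 and 153 in TAM, and with the trend removed at -1.20 and -1.15. TNFRSF1A, the main TNF receptor, had 1462, 1264 and 1539 counts and was called in neither.

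The remaining receptors named by rule were those of interleukin-1, interleukin-17 and interferon-gamma. IL1RAP, the accessory chain of the interleukin-1 receptor, had 26, 70 and 7 counts, with log2 folds of 1.10 (0.43 to 1.81) for Rg3 and -1.69 (-3.14 to -0.44) for TAM, and its Rg3 call was lost at 0.54 with the trend removed. IFNGR1 had 132, 413 and 127 counts and was called higher with Rg3, at 1.32 (1.03 to 1.61), and at 0.65 with the trend removed. IFNGR2, with 1404, 1538 and 1075 counts, was called in neither. IL17RC was called lower with Rg3, at -0.62, from 386 counts in control and 316 in Rg3. With the GC and length trend removed it was at 0.16.

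Among NF-kB factors and inhibitors, the inhibitors NFKBIA and NFKBIE were called higher with TAM, NFKBIE only while the GC and length trend was left in. NFKBIA, whose protein IkB-alpha holds NF-kB in the cytoplasm and which is itself an NF-kB target, had 339 counts in control, 410 in Rg3 and 766 in TAM, with log2 folds of -0.05 (-0.26 to 0.16) for Rg3 and 1.38 (1.20 to 1.57) for TAM. NFKBIE had 283, 357 and 438 counts and a TAM log2 fold of 0.84 (0.62 to 1.06). With the trend removed their TAM values were 1.00 and 0.48, the second no longer called, while NFKBIE moved from 0.0085 to 0.71 with Rg3 and was then called higher there. Of the 15 genes listed, all compared, TAM had 2 called higher and 2 lower (median 0.36), and Rg3 had 1 higher and 1 lower (median -0.27). Both directions were below the shares of all genes, which were 17.4% and 23.8% for TAM, then 25.0% and 19.5% for Rg3.

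The 2 called lower with TAM were REL and TNFAIP3. TNFAIP3, which encodes the inhibitor A20 and is another NF-kB target, had 60, 91 and 31 counts, with a TAM log2 fold of -0.75 (-1.42 to -0.10). REL, an NF-kB subunit, had 68, 97 and 10 counts and a TAM log2 fold of -2.56 (-3.68 to -1.59), or -1.76 with the trend removed, although 50.6% of its 50-base stretches are shared, mainly with AC010733.2. With Rg3, CHUK, an IkB kinase subunit, was called higher at 1.30 (1.04 to 1.56) and BCL3 lower at -1.11 (-1.42 to -0.81). With the trend removed CHUK was at 0.55 and BCL3 at -0.31, neither of them called. NFKBIB, TNIP1 and RELA, the genes of this list with most counts, were called in neither comparison.

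Of the 9 genes in the list made for decay of AU-rich mRNA, 0 were called higher and 1 lower with TAM (median -0.10). Of all genes, 17.4% and 23.8% were. The lower count was 2 with library totals (32.7% of all genes) and 2 with the trend removed (16.3% of all genes). With Rg3, 2 were called higher and 1 lower (median -0.24), where 25.0% and 19.5% of all genes were. TIA1, a repressor of translation, had 270, 523 and 82 counts in control, Rg3 and TAM, with log2 folds of 0.63 (0.41 to 0.84) and -1.51 (-1.89 to -1.15). TIAL1, a relative of TIA1, was at 0.71 with Rg3. With the trend removed the Rg3 values were -0.23 for TIA1 and -0.015 for TIAL1, and the TAM value of TIA1 was -0.89. ZFP36L1, a decay factor, was called lower with Rg3, at -0.82 (-1.16 to -0.49). KHSRP, HNRNPD and ELAVL1, which had the most counts of this list, were called in neither, but HNRNPD moved from -0.24 to -0.82 with Rg3 once the trend was removed and was then called lower.

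Of the proteases that release or cut chemokines, 6 could be compared, with 2 called higher and 3 lower with Rg3 (median -0.32) and 2 higher and 1 lower with TAM (median -0.41). In the same order the shares of all genes were 25.0% and 19.5%, then 17.4% and 23.8%. With library totals 4 proteases were called lower with TAM, among them ANPEP at -0.63 and MMP2 at -0.69, where 32.7% of all genes were called lower. Removing the GC and length trend also brought ANPEP, at -0.63, and MMP2, at -0.65, to a lower call with TAM, where 16.3% of all genes were called lower. ADAM10, the main sheddase of CXCL16 and CX3CL1, had 655 counts in control, 1449 in Rg3 and 269 in TAM. Its log2 folds were 0.82 (0.68 to 0.95) and -1.08 (-1.29 to -0.87), and with the trend removed 0.08 and -0.28, neither of them called. ANPEP, an aminopeptidase, had 9069, 3549 and 5851 counts and was called lower with Rg3, at -1.68 (-1.09 with the trend removed), as was MMP2, with 2576, 1191 and 1603 counts, at -1.44. MMP14 had 77, 53 and 107 counts, with log2 folds of -0.87 (-1.40 to -0.34) and 0.68 (0.24 to 1.12), and with the trend removed -0.25 and 0.48, neither of them called. MMP1, named after its values were seen, had 8, 16 and 47 counts, with a TAM log2 fold of 2.76 (1.67 to 4.05).

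**Figure D5:**
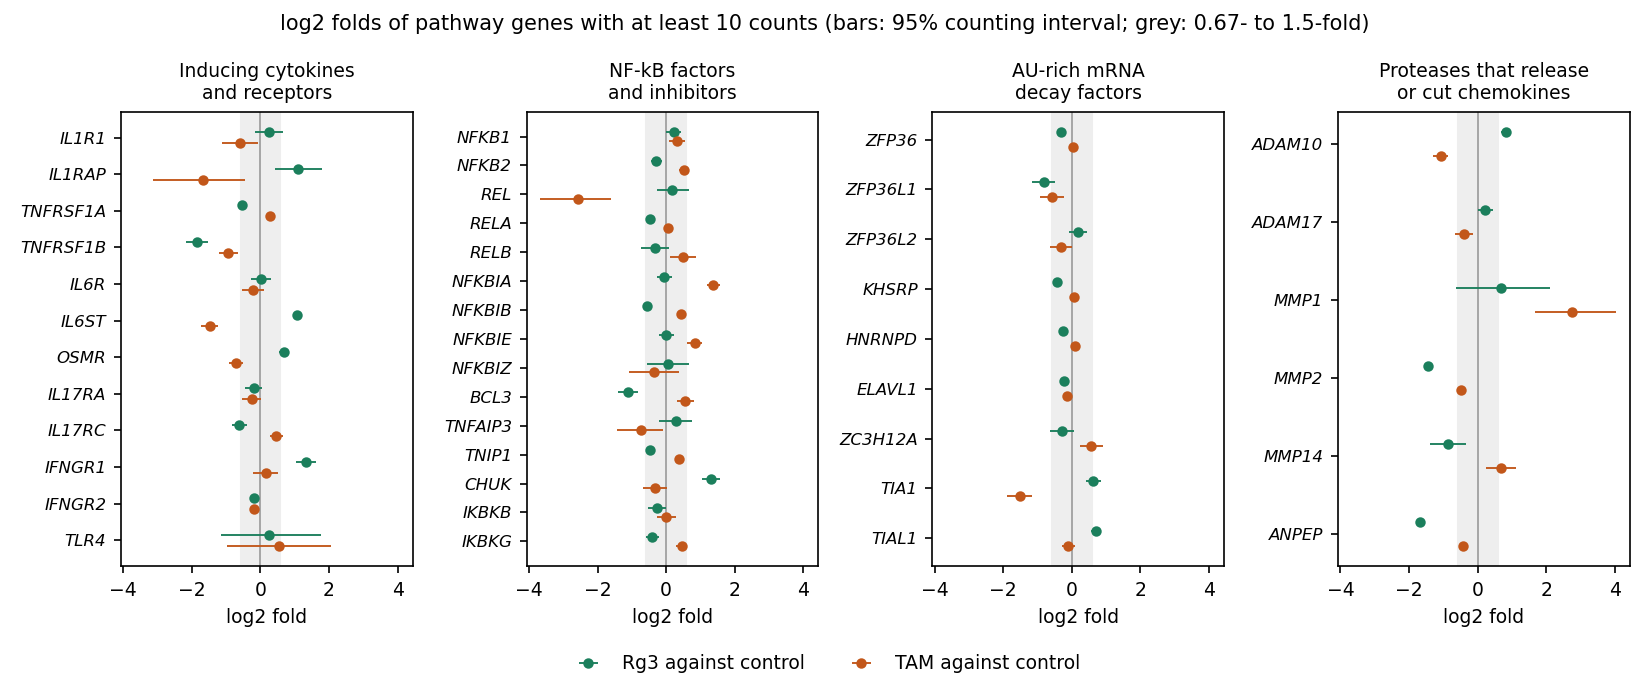
The log2 folds against control of Rg3 (green) and TAM (orange) for the genes of 4 pathway lists with at least 10 counts, with 95% counting intervals as bars and 0.67- to 1.5-fold in grey. NFKBIA stands at 1.38 with TAM and -0.05 with Rg3, and REL, at -2.56 with TAM, is the lowest point.

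Cell identity was checked on markers. The keratin KRT8 had between 7817 and 15329 counts in the 3 libraries, and the epithelial marker CDH1 had 76 in control, 39 in Rg3 and 5 in TAM. Most defining markers of other cells were at or near 0: CSF1R had 0, 0 and 1 counts, and LYZ, AIF1, CD163 and FCGR3A had 0 in all libraries. Of the 9 monocyte and macrophage markers 7 were under 10 counts, and the list summed to 62.4 CPM in control, 32.8 in Rg3 and 114 in TAM, mostly CD68, with 615, 426 and 1100 counts, which shares 92.6% of its 50-base stretches with AC016876.2. CD14, a monocyte marker, had 97, 46 and 37 counts, or 8.45, 3.19 and 3.72 CPM, and was called lower with both agents. The fibroblast list summed to 181, 76.7 and 87.0 CPM, mostly COL1A1, with 5 of 7 markers under 10 counts. The endothelial list summed to between 3.96 and 5.53 CPM and the lymphocyte list to between 0.784 and 1.41. The epithelial list summed to 2400 CPM in control, 1088 in Rg3 and 2825 in TAM, mostly KRT8 and KRT18. Of its 6 markers 3 were called lower with TAM and 1 higher (median log2 fold -0.69), the lower ones being CDH1, KRT19 with 665 counts in control and 181 in TAM, and EPCAM with 26 and 8. With Rg3, 5 of the 6 were called lower (median -1.29). Of all genes, 23.8% were called lower and 17.4% higher with TAM, and 19.5% lower with Rg3. The marker values are given with the GC and length trend left in. The part of these marker shifts in the chemokine values was not tested. In bulk RNA, fewer cells that transcribe a gene and less RNA per cell cannot be told apart.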

How the data were processed

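Reads came from an Ion Proton sequencer, from total RNA extracted with TRIzol. The authors deposited raw counts per gene. TopHat alignment is stated in the study's methods and GRCh38 in the submitters' processing notes, while the annotation, the counting tool and its use of strand are not given in the sources used here. Column names were matched to the libraries by their GEO descriptions.

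From the counts, CPM used TMM factors (edgeR 4.0.16), which were 1.02 for control, 1.12 for Rg3 and 0.879 for TAM. Folds of 2 libraries had exact Clopper-Pearson 95% intervals, and a count of 0 was set to 3. A fold over 1.5 or under 0.67 with at least 10 counts in either library was called, without a test, as each condition had 1 library. The Limma criteria of the study need replicates and were not used. GC content, length and shared 50-base stretches came from GENCODE 29, places and promoters from RefSeq GRCh38.p14. Alternatives were library totals, DESeq2 1.42.0 size factors, other minimum counts, the counting interval, a loess trend (span 0.3) and summed CXCL1, CXCL2 and CXCL3. Named genes were every member and, per list, the 3 with most counts and, among those with at least 50, the 2 highest and 2 lowest called folds for each treatment, plus the 5 most like CCL2. The scripts were tested on simulated data. The members and lists were chosen with earlier results of these data known.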

Additional observations from a re-analysis of the deposited data

How the results depend on the processing

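CCL2 was called higher with TAM under each alternative run, with log2 folds of 2.83 with library totals, 3.08 with DESeq2's size factors and 3.10 with the GC and length trend removed. With that trend removed CCL2 was at 0.093 with Rg3 against control and 3.01 with TAM against Rg3, and with library totals at 2.14 in the latter. With library totals its Rg3 value was 0.70 and was called higher. Chemokines called higher with Rg3 came to 2 of 5 at a minimum of 50 counts (24.9% of all genes) and 3 of 8 with the trend removed (10.3% of all genes). With CXCL1, CXCL2 and CXCL3 summed into 1 value of -0.0066, 3 were called higher, out of fewer than 8 values compared. At 50 counts, 3 of 4 were called higher with TAM (16.2% of all genes) and 1 of 5 lower with TAM against Rg3 (36.0%). With the trend removed, 5 of 8 were called higher with TAM against Rg3 (13.9% of all genes), CCL20 turned to 0.089, and with Rg3 IL17RC turned to 0.16, TIAL1 to -0.015 and TIA1 to -0.23. Over the 6 pathway lists, calls higher with Rg3 went from 9 to 2 with the trend removed, where those of all genes went from 25.0% to 10.3%. Calls higher with TAM went from 4 to 8 at a minimum of 1 count, where those of all genes went from 17.4% to 19.4%. Calls lower with TAM went from 9 to 14 with library totals, where those of all genes went from 23.8% to 32.7%. Library totals moved the median log2 fold of all genes from 0.04 to 0.18 for Rg3, from -0.02 to -0.23 for TAM and from -0.08 to -0.42 for TAM against Rg3. The share of called genes that were higher moved from 56.1% to 69.1%, from 42.3% to 23.1% and from 45.9% to 29.3%. The cause of these shifts was not tested. Depth limits CXCL5 most, at 1 to 5 counts, then CCL5, CCL20, CXCL2, CXCL3 and CXCL8, with 11 to 23 counts each in control. No paired analysis was possible because there was 1 library for every condition.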

Other observations

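The other chemokine ligand genes that lie near CCL2 and near the ELR chemokines were almost unread. Close to CCL2 on chromosome 17, CCL7 had 0 counts in control, 0 in Rg3 and 1 in TAM, CCL11 had 0, 0 and 2, and CCL8, CCL13 and CCL1 had 0 in all 3 libraries. In the group of chemokine genes on chromosome 4, CXCL6, which lies between CXCL8 and CXCL1, had 0 counts in all 3, as did PPBP, while PF4 had 1, 0 and 2. The interferon-induced CXCL9 and CXCL10 had 0 counts and CXCL11 had 0, 0 and 1.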
